A study of Mus musculus with 9 samples.

Results

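The genes described here encode the enzymes that build sugar chains in the Golgi of mouse thymic dendritic cells. They were taken by name from a count table of 55302 gene symbols: every symbol that starts with St3gal, St6gal, St8sia, B3gnt, B3galt, B4galt, B4galnt, Galnt, Fut, Mgat, Gcnt or Chst followed by a digit. The rule used no measured value and gave 95 genes, of which 92 are protein-coding, 2 are antisense RNAs and 1 is a pseudogene in the GENCODE M21 annotation of mm10. Of these, 59 passed the filter on low counts and were tested among 15417 genes, all 59 of them protein-coding.

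RNA sequencing was done on 3 populations sorted from thymi of C57BL/6 mice aged 8 weeks, with 3 libraries each: CD301b (replicates 1, 3 and 4 by their labels), SIRPa (replicates 1, 2 and 3) and XCR1 (replicates 1, 2 and 3). The mice carried no stated mutation and no treatment is given. The study's title concerns type 2 cytokines, SIRPa-positive dendritic cells and the deletion of self-reactive thymocytes, and the populations are compared here in 3 pairs: CD301b with SIRPa, CD301b with XCR1 and SIRPa with XCR1. The labels name 3 mice but do not say which library came from which, the labels do not state the sorting gates, and 1 label field calls the cells thymocytes where another calls them thymic dendritic cells.

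As background, cells grow glycans stepwise. Glycosyltransferases pass single sugars from activated donors to a growing chain on a protein or on the lipid ceramide, and sulfotransferases add sulfate at the end. N-glycans are trimmed and then branched by Mgat enzymes, O-glycans are begun by Galnt enzymes and branched by Gcnt enzymes, galactose and GlcNAc lengthen the arms, and sialic acid and fucose cap them. Lectins read these chains: siglecs bind sialic acid and selectins bind sialylated, fucosylated ends, while galectins bind galactose-bearing arms and the CD301 lectins bind GalNAc or galactose ends.

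Libraries held 20246092 to 25438864 counts. Levels are given as CPM (counts scaled to a fixed total per library) on library sizes scaled by TMM, in the order of the replicate numbers above. A library is called by its population and that number, such as CD301b 3. The genes that name the sorts followed their labels. Mgl2, which encodes CD301b, had 682, 624 and 565 CPM in CD301b, 17.7, 23.5 and 28.3 CPM in SIRPa and 2.34, 1.33 and 1.78 CPM in XCR1 libraries. Xcr1 had 0.318, 0.461 and 1.08 CPM in CD301b, 6.57, 15.6 and 6.64 CPM in SIRPa and 781, 854 and 662 CPM in XCR1 libraries. Sirpa had 704, 633 and 599 CPM in CD301b, 840.1, 733 and 746 CPM in SIRPa and 14.0, 9.02 and 14.6 CPM in XCR1 libraries. Sirpa was high in both CD301b and SIRPa libraries, while Mgl2 separated these populations. Of 12 markers of type 1 conventional dendritic cells, 12 were lower in CD301b and 12 in SIRPa than in XCR1. Of 14 markers of type 2 conventional dendritic cells, 13 were higher and 1 lower in CD301b than in XCR1, and 12 were higher and 1 lower in SIRPa than in XCR1. In CD301b relative to SIRPa, 3 type 1 markers were higher and 5 lower, and 6 type 2 markers were higher and 1 lower. Markers of mature dendritic cells summed to 4152 to 4486 CPM in CD301b, 4786 to 5014 CPM in SIRPa and 3799 to 4748 CPM in XCR1 libraries. Of the 17 tested, 1 was higher and 5 lower in CD301b than in SIRPa. Against XCR1, 6 were higher and 6 lower in CD301b, and 8 higher and 1 lower in SIRPa. Markers of other cells moved with the populations too. All 14 macrophage markers were higher in both CD301b and SIRPa than in XCR1, with summed levels of 1907 to 2269 CPM in CD301b, 2724 to 3166 CPM in SIRPa and 198 to 214 CPM in XCR1 libraries, and Marco at 0 in XCR1. Plasmacytoid dendritic cell markers summed to 676 to 830.2 CPM in CD301b, 615 to 640.1 CPM in SIRPa and 154 to 194 CPM in XCR1 libraries. Monocyte markers summed to 606 to 725 CPM in CD301b, 579 to 592 CPM in SIRPa and 63.4 to 139 CPM in XCR1 libraries, with XCR1 3 at the upper end and XCR1 1 and XCR1 2 at 63.4 CPM and 69.5 CPM. Of 12 tested plasmacytoid markers 7 were higher in CD301b and 6 in SIRPa than in XCR1, and of 8 tested monocyte markers 4 and 3. Stroma and endothelium markers summed to 234 to 282 CPM in CD301b, 215 to 267 CPM in SIRPa and 55.0 to 69.2 CPM in XCR1 libraries, nearly all of it from Pecam1 and Kdr. The collagen gene Col3a1 was at 0 in CD301b and SIRPa. Of 4 tested, 3 were higher in CD301b and 2 in SIRPa than in XCR1. Granulocyte markers summed to 23.3 to 36.3 CPM in CD301b, 47.4 to 85.2 CPM in SIRPa and 0.498, 1.23 and 32.7 CPM in XCR1 libraries, with XCR1 3 again high. Of 5 tested, 1, Csf3r, was higher in both other populations than in XCR1. Markers of thymic epithelium, innate lymphoid cells and red cells each summed to at most 85.0 CPM in a library. Of 7 tested thymic epithelium markers, 2 were higher in both CD301b and SIRPa than in XCR1, and 1 was lower in CD301b than in SIRPa. Of 6 tested innate lymphoid markers, 1 was higher and 1 lower in CD301b, and 2 higher and 1 lower in SIRPa, than in XCR1. Of 6 tested red cell and platelet markers, 1 was higher in both than in XCR1. B cell markers summed to 192 to 239 CPM in CD301b, 268 to 679 CPM in SIRPa and 103 to 214 CPM in XCR1 libraries, with Ms4a1, Pax5, Blk and Vpreb3 at 0 in CD301b. Of 10 tested B cell markers, 2 were lower in CD301b than in SIRPa, and 2 were higher and 2 lower in CD301b than in XCR1. In SIRPa, 5 were higher than in XCR1, with 2 to 5 called when 1 library was left out. Thymocyte markers summed to 279.8 to 631 CPM in CD301b, 367 to 684 CPM in SIRPa and 173 to 821 CPM in XCR1 libraries, with XCR1 3 at the upper end and XCR1 1 and XCR1 2 at 225 CPM and 173 CPM. Of the 16 tested, 0 passed with edgeR, limma-voom or DESeq2 in any comparison, and 0 had an unadjusted edgeR p under 0.05, but without XCR1 3 there were 7 higher in CD301b and 7 higher in SIRPa than in XCR1. The part of these cells in the results below was not tested. In bulk samples, more cells of a type and more RNA per cell cannot be told apart.

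Most calls in these genes were against XCR1. Of the 59 tested, 24 were higher in CD301b than in XCR1 (13.5% of all genes tested were) and 8 were lower (9.12%), or 32 in either direction (22.6%). In SIRPa, 25 were higher than in XCR1 (13.9% of all genes) and 5 were lower (10.7%), or 30 in either direction (24.7%). Between CD301b and SIRPa, 3 were higher (2.20%) and 6 lower (2.08%), or 9 in either direction (4.28%). In the test of any difference over the 3 populations, 29 of 59 passed, against 25.8% of all genes. All these calls are edgeR quasi-likelihood tests at an adjusted p under 0.05, with Benjamini-Hochberg adjustment over the 15417 genes, in 1 fit over the 9 libraries. The 3 comparisons share libraries, so they are not independent of each other. Nothing says that the libraries of a population came from separate sorts, so the p-values measure the spread between libraries, which may be technical.

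The median log2 fold change of the 59 genes was -0.048 for CD301b minus SIRPa, 0.67 for CD301b minus XCR1 and 0.64 for SIRPa minus XCR1, beside 0.0067, 0.049 and 0.058 over all genes tested. Summed over all 95 genes, the level was 2159.7 to 2238 CPM in CD301b, 2231 to 2302 CPM in SIRPa and 1763 to 1849.7 CPM in XCR1 libraries, so the XCR1 libraries did not overlap the others. In every fit that left out 1 library, 3 of the 9 calls between CD301b and SIRPa, 23 of the 32 between CD301b and XCR1 and 21 of the 30 between SIRPa and XCR1 were made again. The 6 genes lower in CD301b than in SIRPa were 1 gene without CD301b 3 or without SIRPa 1, and 3 genes without SIRPa 2 or without SIRPa 3. Over all genes the number lower fell as well, from 321 to 217 without CD301b 3 and 148 without SIRPa 1. It was 218 without SIRPa 2 and 220 without SIRPa 3. Without XCR1 3, the library high in thymocyte markers, 21 genes were higher and 9 lower in CD301b than in XCR1, and 19 were higher and 6 lower in SIRPa than in XCR1. Over all genes, 1961 were higher and 1284 lower in CD301b than in XCR1 in that fit, against 2081 and 1406 with all libraries. For SIRPa minus XCR1 they were 2102 and 1574, against 2147 and 1656.

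**Figure D1:**
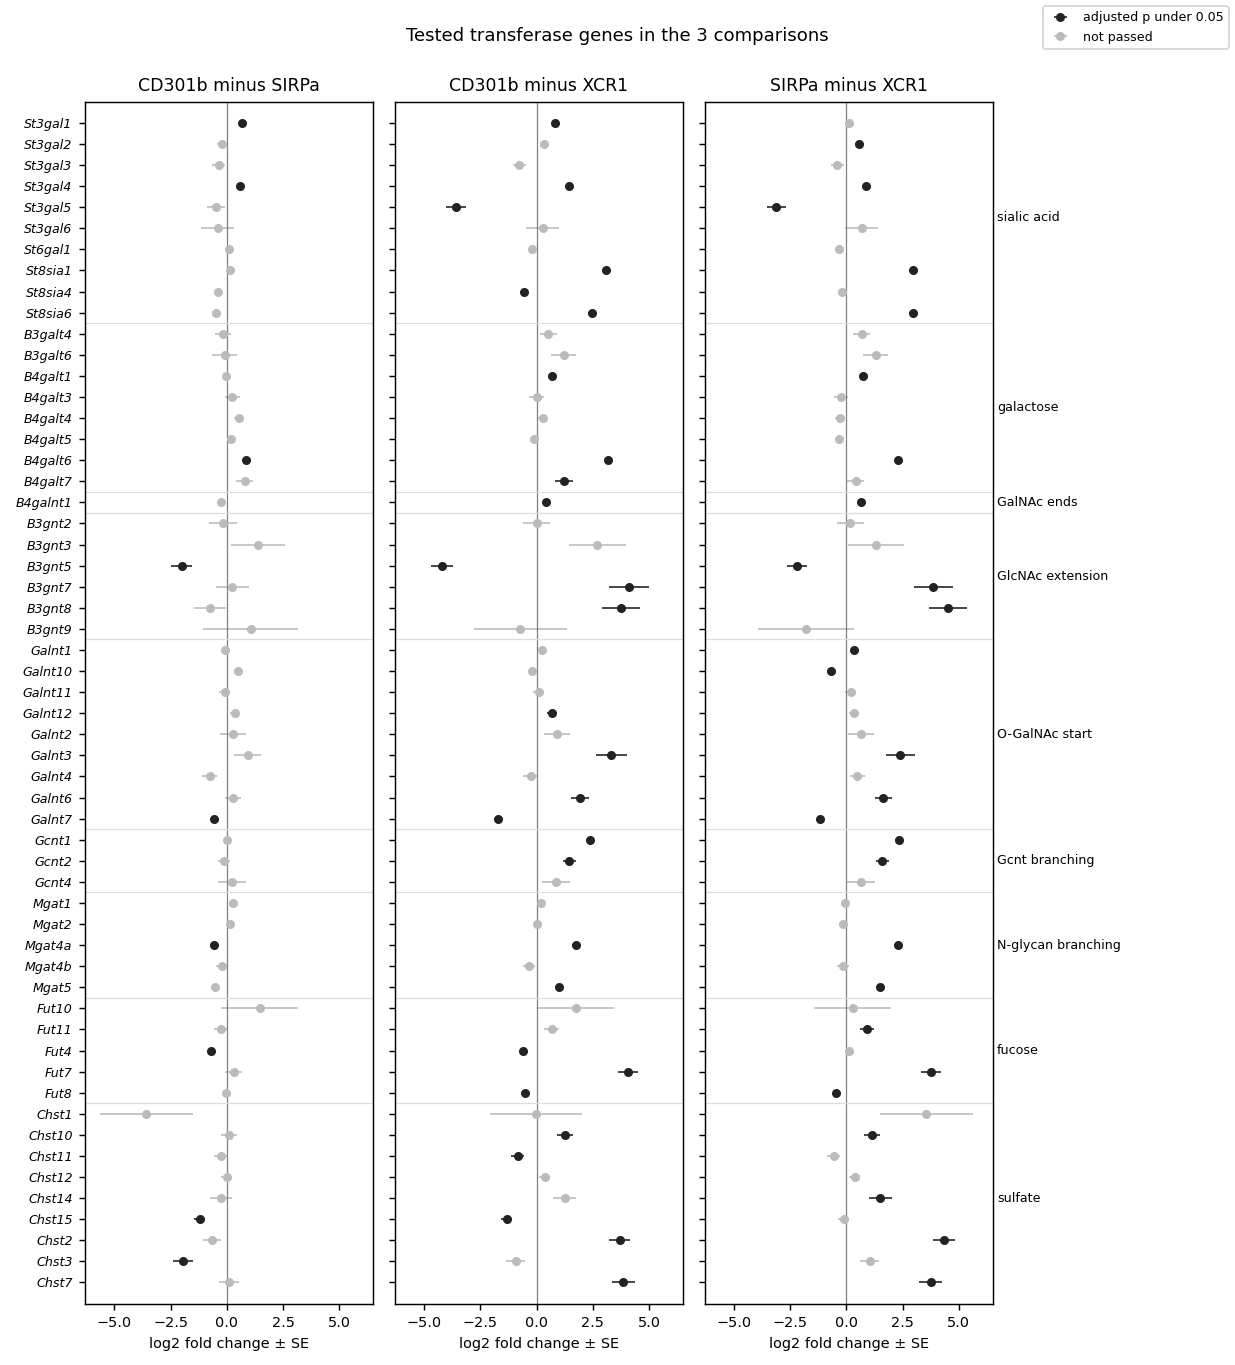
Log2 fold changes with their standard errors from edgeR for 56 tested transferase genes in the 3 comparisons, grouped by the sugar or step, with black points at an adjusted p under 0.05 and grey points otherwise. The other 3 tested genes (St8sia2, B4galnt2 and Galnt9) had 0 counts in XCR1 and are not drawn. Most points in the left panel lie near 0, while the comparisons with XCR1 reach from -4.21 for B3gnt5 to 4.51 for B3gnt8.

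In the Gcnt branching enzymes the summed level was 75.3 to 102 CPM in CD301b, 82.2 to 88.9 CPM in SIRPa and 19.4 to 24.8 CPM in XCR1 libraries. For the N-glycan branching enzymes it was 301 to 351 CPM in CD301b, 357 to 369 CPM in SIRPa and 222 to 253 CPM in XCR1 libraries, and for the galactosyltransferases 307 to 322, 242 to 256 and 179.9 to 199 CPM. In none of these groups did an XCR1 library reach the lowest library of the other populations. The sums of the O-GalNAc starting enzymes lay close together and overlapped, at 349 to 365 CPM in CD301b, 351 to 361 CPM in SIRPa and 356 to 393 CPM in XCR1 libraries. Sulfotransferases summed to 107 to 130.5 CPM in CD301b, 162 to 184 CPM in SIRPa and 83.4 to 96.8 CPM in XCR1 libraries, so that SIRPa lay above both others. Sialyltransferases summed to 678 to 740, 650 to 683 and 591 to 634 CPM in the same order. B4galnt enzymes summed to 148 to 182, 188 to 213 and 119 to 126 CPM, so XCR1 was lowest in both groups. Fucosyltransferases went the other way, at 104 to 121, 124 to 139 and 129 to 142 CPM. So did the summed B3gnt enzymes, at 18.5 to 29.0, 26.6 to 35.7 and 35.7 to 40.9 CPM. In both sums XCR1 lay above CD301b and overlapped SIRPa. In XCR1 most of the B3gnt sum was B3gnt5, with a mean of 30.9 CPM beside 37.6 CPM for the group. B3gnt7 and B3gnt8 were instead lower in XCR1 than in both other populations, at XCR1 means of 0.397 CPM and 0.560 CPM.

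**Figure D2:**
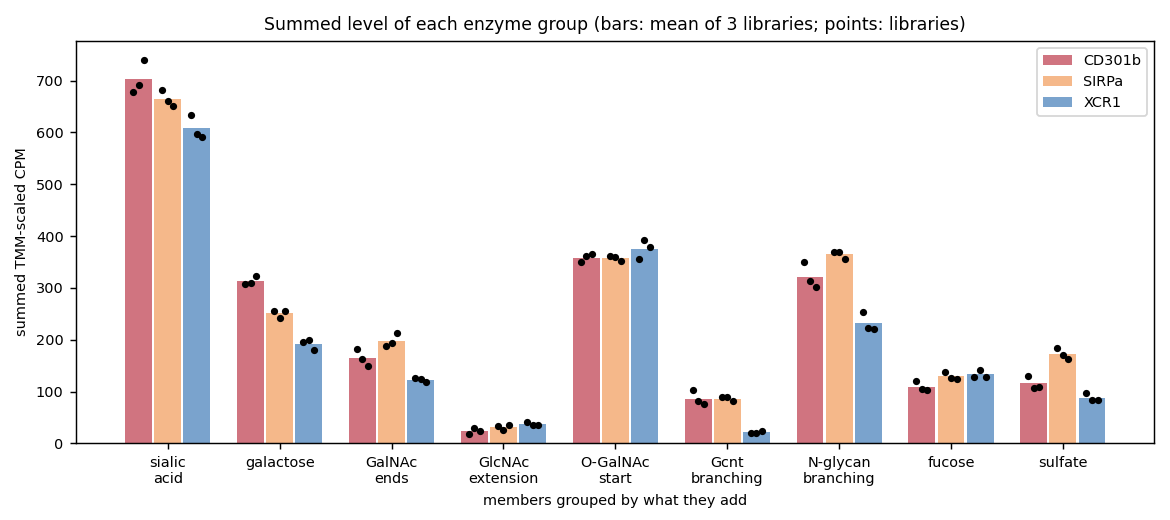
Summed TMM-scaled CPM of each role group in each of the 9 libraries, with CD301b, SIRPa and XCR1 from left to right, bars for the mean of 3 libraries and points for the libraries. XCR1 libraries lie lowest in the Gcnt group, at 19.4 to 24.8 CPM, and overlap the others in the O-GalNAc group.

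As background on glycolipids, glucosylceramide receives galactose from B4galt5 or B4galt6 to become lactosylceramide, St3gal5 adds sialic acid to give the ganglioside GM3, and St8sia1 adds a further sialic acid to give GD3. B4galnt1 adds GalNAc and B3galt4 galactose to make the longer gangliosides, while B3gnt5 sends lactosylceramide into the lacto and neolacto series instead. These genes were put together after their values were seen. St8sia1, B4galt6 and B4galnt1 were higher in CD301b and in SIRPa than in XCR1, St3gal5 and B3gnt5 were lower, and B4galt5 and B3galt4 passed in no comparison.

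St8sia1 (chr6:142821545-142964452 in mm10, minus strand) had 125, 106 and 128 CPM in CD301b, 118, 95.7 and 116 CPM in SIRPa and 12.3, 13.7 and 16.7 CPM in XCR1 libraries. The CD301b and SIRPa libraries were high and overlapped, and the XCR1 libraries were low. The log2 fold change was 3.07 ± 0.16 (SE) for CD301b minus XCR1 (edgeR adjusted p = 2.92e-12) and 2.95 ± 0.15 for SIRPa minus XCR1 (adjusted p = 5.33e-12). CD301b minus SIRPa was 0.12 ± 0.14 and did not pass (adjusted p = 0.830).

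St3gal5 (chr6:72097592-72154571, plus strand) had 4.62, 9.97 and 11.2 CPM in CD301b, 8.70, 19.2 and 7.81 CPM in SIRPa and 121, 101 and 87.1 CPM in XCR1 libraries. Every XCR1 library was high, at 87.1 CPM or more, and the CD301b and SIRPa libraries were low and overlapped. It was lower in CD301b (log2 fold change -3.59 ± 0.43, edgeR adjusted p = 2.65e-04) and lower in SIRPa (log2 fold change -3.11 ± 0.42, adjusted p = 5.32e-04). Thus St3gal5, which makes GM3, and St8sia1, which turns it into GD3, ran in opposite directions between XCR1 and the other populations.

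The lactosylceramide synthases are a pair of which B4galt6 changed and B4galt5 did not pass. B4galt6 had 92.5, 88.1 and 98.4 CPM in CD301b, 46.9, 51.3 and 56.9 CPM in SIRPa and 9.52, 12.2 and 9.44 CPM in XCR1 libraries, in steps with no overlap between the populations. It was higher in CD301b than in SIRPa by 0.85 ± 0.15 on the log2 scale (edgeR adjusted p = 0.00174), higher in CD301b than in XCR1 by 3.16 ± 0.17 (adjusted p = 6.03e-12) and higher in SIRPa than in XCR1 by 2.31 ± 0.16 (adjusted p = 6.09e-10). B4galt5, which had the highest mean CPM of the galactosyltransferases, had 74.6, 78.5 and 79.9 CPM in CD301b, 82.3, 64.2 and 56.0 CPM in SIRPa and 89.8, 81.0 and 81.5 CPM in XCR1 libraries. Its log2 fold changes of 0.20 for CD301b minus SIRPa, -0.12 for CD301b minus XCR1 and -0.32 for SIRPa minus XCR1 did not pass. Per kilobase of exon, B4galt5 averaged 18.0 ± 0.639 CPM in CD301b, 15.7 ± 3.12 CPM in SIRPa and 19.5 ± 1.15 CPM in XCR1 (SD, n = 3 each), and B4galt6 16.0 ± 0.890 CPM in CD301b, 8.90 ± 0.866 CPM in SIRPa and 1.79 ± 0.275 CPM in XCR1.

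B3gnt5 (chr16:19760208-19772753, plus strand) had 0.358, 2.14 and 2.54 CPM in CD301b, 7.33, 4.61 and 8.19 CPM in SIRPa and 31.1, 33.3 and 28.2 CPM in XCR1 libraries, again with no overlap between the populations. XCR1 libraries were high and CD301b libraries lowest, with replicate 1 at 0.358 CPM. The log2 fold change was -4.21 ± 0.49 for CD301b minus XCR1 (edgeR adjusted p = 5.67e-06) and -2.20 ± 0.44 for SIRPa minus XCR1 (adjusted p = 0.00126). CD301b was also lower than SIRPa (log2 fold change -2.01 ± 0.46, adjusted p = 0.0189). The B3gnt5 call between CD301b and SIRPa was lost at an adjusted p of 0.0578 to 0.0908 without CD301b 3, SIRPa 1 or SIRPa 3, and at 0.0782 in a fit of the 6 libraries compared.

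B4galnt1 had 180.5, 159 and 148 CPM in CD301b, 187, 190.4 and 211 CPM in SIRPa and 126, 125 and 119 CPM in XCR1 libraries, the highest level per length of the tested genes, at 46.5 CPM per kilobase of exon as a mean of the 3 populations. The populations did not overlap, although CD301b minus SIRPa, at -0.27 ± 0.11, did not pass (edgeR adjusted p = 0.224). B4galnt1 was higher in SIRPa than in XCR1 by 0.67 ± 0.11 on the log2 scale (edgeR adjusted p = 7.34e-05). It was higher in CD301b than in XCR1 by 0.40 ± 0.11 (adjusted p = 0.00949), the call in CD301b being lost at an adjusted p of 0.0846 without CD301b 1. B3galt4 averaged 8.03 ± 1.27 CPM in CD301b, 8.92 ± 2.43 CPM in SIRPa and 5.57 ± 0.298 CPM in XCR1 (SD, n = 3 each) and passed in no comparison. Outside the name rule, Ugcg, which makes glucosylceramide, averaged 68.9 ± 22.8 CPM in CD301b, 49.3 ± 3.46 CPM in SIRPa and 27.0 ± 2.58 CPM in XCR1, with log2 fold changes of 1.35 ± 0.19 for CD301b minus XCR1 (adjusted p = 1.71e-05) and 0.87 ± 0.19 for SIRPa minus XCR1 (adjusted p = 0.00170).

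**Figure D3:**
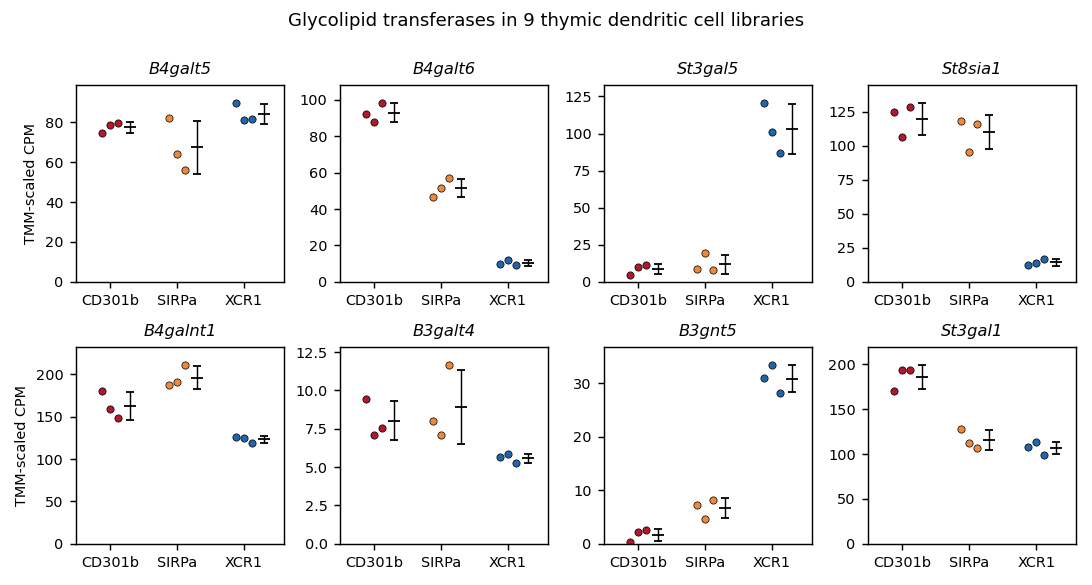
TMM-scaled CPM of 8 transferase genes that act on glycolipids or their sugar ends, 1 point per library, with CD301b, SIRPa and XCR1 from left to right and bars for the mean ± SD of 3 libraries. St3gal5 and B3gnt5 are highest in XCR1, St8sia1 and B4galt6 are lowest there, and B4galt5 lies between 56.0 and 89.8 CPM in all 9 libraries.

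The start regions of 4 of these genes are shown because they stand for both directions: St8sia1 and St8sia6 were higher in CD301b and SIRPa than in XCR1, and St3gal5 and B3gnt5 were lower. Each is the 250 bases before the annotated start in RefSeq on GRCm38.p6, printed 5′ to 3′ along the gene, at chr6:142964453-142964702 (minus strand), chr2:13793521-13793770 (minus strand), chr6:72097358-72097607 (plus strand) and chr16:19759984-19760233 (plus strand). Capitals mark the GC box letters GGGCGG on either strand.
St8sia1: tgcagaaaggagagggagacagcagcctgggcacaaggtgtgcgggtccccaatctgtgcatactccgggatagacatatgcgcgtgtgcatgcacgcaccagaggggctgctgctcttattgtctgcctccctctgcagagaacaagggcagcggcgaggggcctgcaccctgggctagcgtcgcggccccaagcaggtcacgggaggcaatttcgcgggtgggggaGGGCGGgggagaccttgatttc
St8sia6: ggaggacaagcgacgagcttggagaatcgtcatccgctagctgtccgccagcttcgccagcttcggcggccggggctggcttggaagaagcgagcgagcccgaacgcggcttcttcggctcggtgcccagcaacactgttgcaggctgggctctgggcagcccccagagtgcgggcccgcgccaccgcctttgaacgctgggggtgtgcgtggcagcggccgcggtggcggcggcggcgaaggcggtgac
St3gal5: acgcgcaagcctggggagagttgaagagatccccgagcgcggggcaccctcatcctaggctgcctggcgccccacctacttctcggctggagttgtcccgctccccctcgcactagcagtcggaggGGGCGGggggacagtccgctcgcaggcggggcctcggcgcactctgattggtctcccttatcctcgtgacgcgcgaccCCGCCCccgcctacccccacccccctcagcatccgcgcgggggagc
B3gnt5: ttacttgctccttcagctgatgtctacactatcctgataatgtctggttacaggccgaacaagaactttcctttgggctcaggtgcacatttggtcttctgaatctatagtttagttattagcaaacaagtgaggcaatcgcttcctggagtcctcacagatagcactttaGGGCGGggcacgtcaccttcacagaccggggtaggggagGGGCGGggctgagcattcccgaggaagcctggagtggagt
The GC box stood once in the St8sia1 window, 2 times in that of St3gal5 and 2 times in that of B3gnt5, with 0 matches in that of St8sia6. It stood in 32.7% of 32851 windows of the same length, 1 for each gene start in the table. The other 4 motifs searched on both strands had 0 matches in these 4 windows, so no match overlapped another motif: GAGGAAGT, a PU.1 site found in 2.44% of windows, GAAA, any 2 bases and GAAA, an interferon regulatory factor site found in 2.98%, TGANTCA, an AP-1 site found in 6.75%, and TTC, any 4 bases and GAA, a STAT site found in 5.85%. These are descriptions of letters in 1 window per gene, and B4galt6 is named without sequence. GENCODE M21 places the start of St8sia6 at 13794064, so its window lies inside the gene as GENCODE draws it. The windows of St3gal5 and B3gnt5 run past the GENCODE starts at 72097592 and 19760208.

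Among the sialyltransferases, 11 of 15 were tested. Against XCR1, 5 were higher and 2 lower in CD301b, and 5 were higher and 1 lower in SIRPa. Between CD301b and SIRPa, St3gal1 and St3gal4 were higher and 0 were lower. Calls in either direction made up 18.2% for CD301b minus SIRPa (4.28% of all genes), 63.6% for CD301b minus XCR1 (22.6%) and 54.5% for SIRPa minus XCR1 (24.7%). St3gal1, which caps the simplest galactose-bearing O-glycan, had 171, 194 and 194 CPM in CD301b, 128, 112 and 107 CPM in SIRPa and 108, 113 and 99.5 CPM in XCR1 libraries. Every CD301b library was above every other library, and SIRPa and XCR1 overlapped. CD301b was higher than SIRPa by 0.68 ± 0.11 on the log2 scale (edgeR adjusted p = 7.80e-04) and higher than XCR1 by 0.80 ± 0.11 (adjusted p = 1.54e-05), and SIRPa minus XCR1 was 0.12 ± 0.11 (adjusted p = 0.534).

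St3gal4, which caps galactose at the ends of longer arms and serves selectin ligands, had 55.1, 68.7 and 65.3 CPM in CD301b, 41.6, 44.1 and 40.2 CPM in SIRPa and 27.0, 21.5 and 20.2 CPM in XCR1 libraries. The 3 populations did not overlap and ran CD301b, SIRPa, XCR1 from high to low. The log2 fold change was 1.46 ± 0.17 for CD301b minus XCR1 (edgeR adjusted p = 9.91e-07), 0.87 ± 0.17 for SIRPa minus XCR1 (adjusted p = 4.44e-04) and 0.59 ± 0.16 for CD301b minus SIRPa (adjusted p = 0.0461). The call against SIRPa was lost at an adjusted p of 0.101 to 0.195 without CD301b 3, CD301b 4, SIRPa 1, SIRPa 2 or SIRPa 3, and at 0.0557 with DESeq2's size factors and 0.0790 with library totals.

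St8sia6, which adds sialic acid onto sialic acid mainly on O-glycans, had 53.9, 41.4 and 56.9 CPM in CD301b, 70.2, 64.9 and 78.6 CPM in SIRPa and 9.22, 7.55 and 10.6 CPM in XCR1 libraries. XCR1 libraries were low, and SIRPa lay above CD301b without overlap, although that difference of -0.49 ± 0.17 did not pass (adjusted p = 0.139). Against XCR1 the log2 fold change was 2.48 ± 0.19 in CD301b (edgeR adjusted p = 1.66e-09) and 2.97 ± 0.19 in SIRPa (adjusted p = 1.25e-10).

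Polysialic acid is made by St8sia4 and St8sia2. St8sia4, the sialyltransferase with the highest mean CPM, had 131, 126 and 141 CPM in CD301b, 166, 189.9 and 159 CPM in SIRPa and 181, 189.6 and 213 CPM in XCR1 libraries. CD301b was lowest without overlap and was lower than XCR1 (log2 fold change -0.55 ± 0.11, edgeR adjusted p = 7.56e-04), while CD301b minus SIRPa was -0.38 ± 0.11 (adjusted p = 0.0605). St8sia2 was scarce, with 3.50, 0.209 and 1.71 CPM in CD301b, 0.567, 0.439 and 0.235 CPM in SIRPa and 0, 0 and 0 CPM in XCR1 libraries. With 0 counts in XCR1, against a floor of 3 counts over the population, it was at least 37.3-fold higher in CD301b (edgeR adjusted p = 0.00940) and at least 8.53-fold higher in SIRPa (adjusted p = 0.0383). The call in CD301b was lost at an adjusted p of 0.0701 without CD301b 1, and the one in SIRPa at an adjusted p of 0.0638 to 0.0944 without CD301b 1, SIRPa 1, SIRPa 2, XCR1 1, XCR1 2 or XCR1 3, and at 0.147 with limma-voom. Without CD301b 1 the bound in CD301b was 19.8-fold.

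St3gal2, another enzyme of O-glycans and gangliosides, averaged 25.7 ± 3.06 CPM in CD301b, 30.1 ± 2.45 CPM in SIRPa and 20.3 ± 1.51 CPM in XCR1 (SD, n = 3 each). It was higher in SIRPa than in XCR1 by 0.57 ± 0.19 (edgeR adjusted p = 0.0354). The St3gal2 call was lost at an adjusted p of 0.0667 to 0.158 without SIRPa 1, SIRPa 2, SIRPa 3, XCR1 1 or XCR1 3, and at 0.0781 without the filter. St6gal1, which builds the sialic acid form read by the B cell siglec CD22, stood at 102 ± 6.99 CPM in CD301b, 94.1 ± 4.24 CPM in SIRPa and 117 ± 14.7 CPM in XCR1, and passed in no comparison. St3gal3 and St3gal6 did not pass either, at mean levels of 9.93 ± 2.49 CPM in CD301b, 12.7 ± 2.09 CPM in SIRPa and 16.8 ± 3.59 CPM in XCR1 for St3gal3 and 3.18 ± 3.64 CPM in CD301b, 4.22 ± 0.128 CPM in SIRPa and 2.63 ± 1.65 CPM in XCR1 for St3gal6.

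Of 9 fucosyltransferase symbols, 5 were tested. Against XCR1, 1 was higher and 2 lower in CD301b, and 2 were higher and 1 lower in SIRPa, while 1 was lower in CD301b than in SIRPa. The share called was 20% for CD301b minus SIRPa (4.28% of all genes), 60% for CD301b minus XCR1 (22.6%) and 60% for SIRPa minus XCR1 (24.7%). Fut7, which finishes the selectin ligand sialyl Lewis x, had 14.6, 10.8 and 9.19 CPM in CD301b, 9.78, 10.8 and 7.20 CPM in SIRPa and 0.947, 0.570 and 0.530 CPM in XCR1 libraries. All 6 CD301b and SIRPa libraries were at 7.20 CPM or more and all XCR1 libraries under 1 CPM. Its log2 fold change was 4.07 ± 0.45 for CD301b minus XCR1 (edgeR adjusted p = 5.13e-07) and 3.75 ± 0.44 for SIRPa minus XCR1 (adjusted p = 1.35e-06).

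Fut4, which makes Lewis x, had 35.6, 26.5 and 25.5 CPM in CD301b, 50.6, 47.6 and 45.3 CPM in SIRPa and 39.3, 54.2 and 39.7 CPM in XCR1 libraries. Here CD301b was lowest and did not overlap the others. It was lower than SIRPa (log2 fold change -0.71 ± 0.18, edgeR adjusted p = 0.0262) and lower than XCR1 (log2 fold change -0.60 ± 0.18, adjusted p = 0.0191). The call against SIRPa was lost at an adjusted p of 0.0596 to 0.119 without CD301b 3, CD301b 4, SIRPa 1, SIRPa 2 or SIRPa 3, and the one against XCR1 at an adjusted p of 0.0596 to 0.134 without CD301b 3, CD301b 4 or XCR1 2. Fut8, which puts fucose on the core of N-glycans, had 52.2, 55.4 and 58.7 CPM in CD301b, 62.9, 52.3 and 56.7 CPM in SIRPa and 77.7, 80.5 and 81.9 CPM in XCR1 libraries. XCR1 libraries were high, and CD301b and SIRPa overlapped. Fut8 was lower in CD301b than in XCR1 (log2 fold change -0.53 ± 0.13, adjusted p = 0.00550) and lower in SIRPa (log2 fold change -0.48 ± 0.13, adjusted p = 0.00994, 0.0555 without SIRPa 2). Fut11 averaged 12.3 ± 3.94 CPM in CD301b, 14.7 ± 0.853 CPM in SIRPa and 7.77 ± 3.02 CPM in XCR1 and was higher in SIRPa than in XCR1 by 0.92 ± 0.33 (adjusted p = 0.0457). The Fut11 call was lost at an adjusted p of 0.0521 to 0.167 without CD301b 3, SIRPa 1, SIRPa 2, SIRPa 3, XCR1 2 or XCR1 3.

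**Figure D4:**
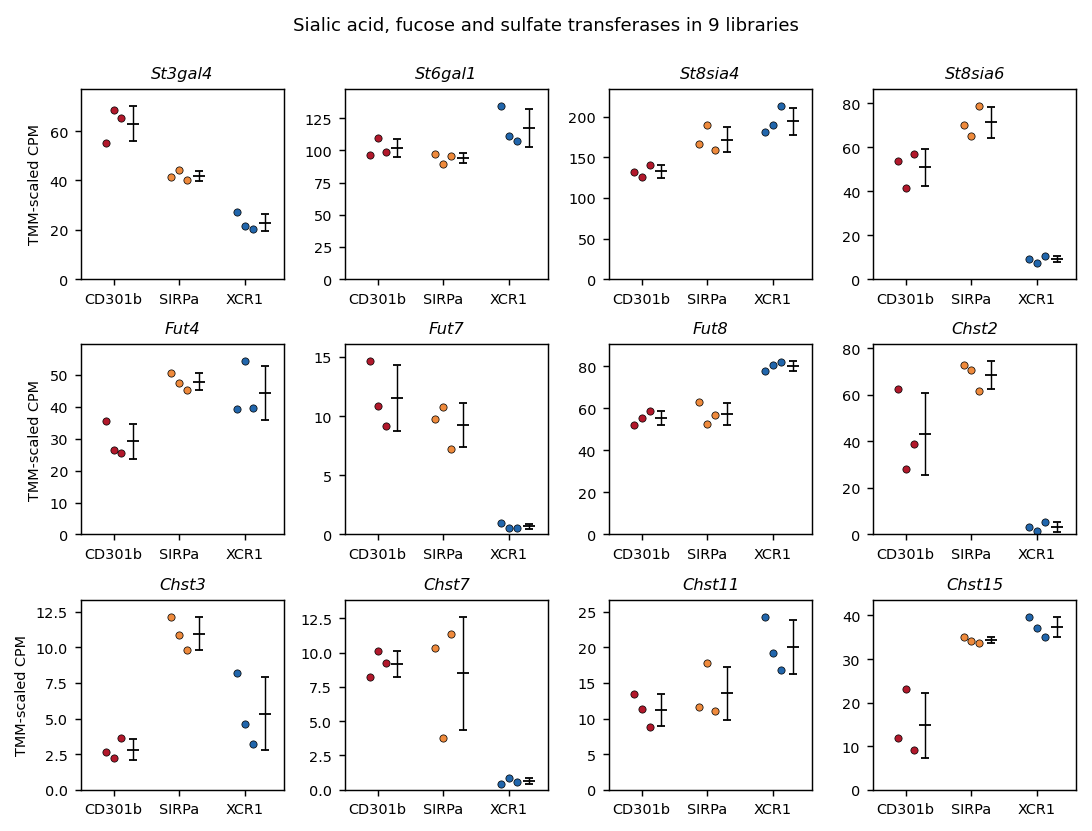
TMM-scaled CPM of sialic acid, fucose and sulfate enzymes, 1 point per library, with CD301b, SIRPa and XCR1 from left to right and bars for the mean ± SD of 3 libraries. St8sia6, Fut7 and Chst2 are lowest in XCR1, while St8sia4 is lowest in CD301b.

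O-glycans begin with a GalNAc placed by Galnt enzymes. Of 18 Galnt symbols 10 were tested. Against XCR1, 4 were higher and 1 lower in CD301b, and 4 were higher and 2 lower in SIRPa, while 1 was lower in CD301b than in SIRPa. As shares, 10% were called for CD301b minus SIRPa (4.28% of all genes), 50% for CD301b minus XCR1 (22.6%) and 60% for SIRPa minus XCR1 (24.7%). Galnt1, the one with the highest mean CPM, had 164, 149 and 154 CPM in CD301b, 163, 166 and 159 CPM in SIRPa and 111, 149 and 129 CPM in XCR1 libraries. XCR1 tended lower and overlapped CD301b in 1 library, and SIRPa minus XCR1 was the comparison that passed, at 0.33 ± 0.12 on the log2 scale (edgeR adjusted p = 0.0411). The Galnt1 call was lost at an adjusted p of 0.0570 to 0.225 without CD301b 1, SIRPa 1, SIRPa 2, SIRPa 3, XCR1 1 or XCR1 3, and at 0.0673 without the filter. Galnt7, which prefers peptides that already carry GalNAc, had 38.7, 27.0 and 42.5 CPM in CD301b, 54.2, 49.5 and 57.7 CPM in SIRPa and 119, 123 and 119 CPM in XCR1 libraries. The 3 populations did not overlap and ran XCR1, SIRPa, CD301b from high to low. CD301b was lower than XCR1 (log2 fold change -1.73 ± 0.16, adjusted p = 2.98e-08) and lower than SIRPa (log2 fold change -0.58 ± 0.15, adjusted p = 0.0341), and SIRPa was lower than XCR1 (log2 fold change -1.16 ± 0.15, adjusted p = 6.51e-06). The call between CD301b and SIRPa was lost at an adjusted p of 0.0518 to 0.179 without CD301b 3, SIRPa 1, SIRPa 2 or SIRPa 3, and at 0.0662 in a fit of the 6 libraries compared.

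Galnt10, also a follow-on enzyme, had 50.5, 52.9 and 52.7 CPM in CD301b, 39.5, 33.1 and 38.3 CPM in SIRPa and 69.1, 48.4 and 61.6 CPM in XCR1 libraries. SIRPa was lowest without overlap, and lower than XCR1 (log2 fold change -0.69 ± 0.16, edgeR adjusted p = 0.00247). CD301b minus SIRPa was 0.49 ± 0.16 (adjusted p = 0.0934). Other starters went the other way: Galnt6, Galnt3 and Galnt9 were higher in CD301b and SIRPa than in XCR1. Galnt6 averaged 31.3 ± 5.85 CPM in CD301b, 25.8 ± 1.47 CPM in SIRPa and 8.26 ± 5.94 CPM in XCR1, with log2 fold changes of 1.92 ± 0.39 for CD301b minus XCR1 (adjusted p = 0.00240) and 1.64 ± 0.39 for SIRPa minus XCR1 (adjusted p = 0.00627). Galnt3 averaged 8.43 ± 1.93 CPM in CD301b, 4.44 ± 0.735 CPM in SIRPa and 0.836 ± 0.857 CPM in XCR1, with 3.33 ± 0.68 (adjusted p = 9.42e-04) and 2.41 ± 0.66 (adjusted p = 0.00982) in the same comparisons, and SIRPa minus XCR1 was 3.61 without XCR1 1.

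Galnt9 had 0.637, 2.51 and 0 CPM in CD301b, 1.18, 0.834 and 0.659 CPM in SIRPa and 0, 0 and 0 CPM in XCR1 libraries. CD301b replicate 4 was at 0 like XCR1, so those groups overlapped. It was at least 21.7-fold higher in CD301b (edgeR adjusted p = 0.0310) and at least 18.4-fold higher in SIRPa than in XCR1 (adjusted p = 0.0330), against a floor of 3 counts. These calls were lost at an adjusted p of 0.0510 to 0.149 without CD301b 3, SIRPa 1, XCR1 1, XCR1 2 or XCR1 3, and at 0.181 with limma-voom, for CD301b, and 0.0534 to 0.0798 without CD301b 3, SIRPa 1, SIRPa 2, SIRPa 3, XCR1 1, XCR1 2 or XCR1 3, for SIRPa. Without CD301b 3 the bound in CD301b was 6.57-fold. Galnt12 averaged 38.7 ± 7.49 CPM in CD301b, 30.5 ± 6.92 CPM in SIRPa and 23.9 ± 6.02 CPM in XCR1 and was higher in CD301b than in XCR1 by 0.70 ± 0.22 (adjusted p = 0.0276). The Galnt12 call was lost at an adjusted p of 0.105 to 0.151 without CD301b 3, XCR1 1 or XCR1 3. Galnt2, Galnt4 and Galnt11 passed in no comparison.

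Branches on O-glycans and on the arms are the work of Gcnt enzymes. Of 5 Gcnt symbols 3 were tested, and 2 were higher in both CD301b and SIRPa than in XCR1. That was 0% called for CD301b minus SIRPa (4.28% of all genes), 66.7% for CD301b minus XCR1 (22.6%) and 66.7% for SIRPa minus XCR1 (24.7%). Gcnt1, which makes the branched O-glycan core used by selectin ligands, had 72.7, 59.1 and 58.7 CPM in CD301b, 61.0, 62.4 and 64.2 CPM in SIRPa and 9.72, 13.1 and 13.8 CPM in XCR1 libraries. XCR1 libraries were low, and CD301b and SIRPa overlapped. The log2 fold change was 2.38 ± 0.17 for CD301b minus XCR1 (edgeR adjusted p = 1.12e-09) and 2.36 ± 0.17 for SIRPa minus XCR1 (adjusted p = 1.21e-09), and CD301b minus SIRPa was 0.022 ± 0.16. Gcnt2, which branches repeated galactose and GlcNAc arms, averaged 18.6 ± 5.55 CPM in CD301b, 20.4 ± 4.13 CPM in SIRPa and 6.76 ± 1.34 CPM in XCR1, with 1.46 ± 0.29 in CD301b (adjusted p = 6.83e-04) and 1.59 ± 0.29 in SIRPa (adjusted p = 2.73e-04) relative to XCR1. Gcnt4 averaged 4.35 ± 1.03 CPM in CD301b, 3.72 ± 1.26 CPM in SIRPa and 2.39 ± 1.41 CPM in XCR1 and did not pass.

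Of 10 Mgat symbols, which branch N-glycans, 5 were tested, and 2 were higher in both CD301b and SIRPa than in XCR1. The share called was 20% for CD301b minus SIRPa (4.28% of all genes), 40% for CD301b minus XCR1 (22.6%) and 40% for SIRPa minus XCR1 (24.7%). Mgat1 and Mgat2, which add the first GlcNAc to each side of the trimmed chain, passed in no comparison. Mgat2, the Mgat gene with the highest mean CPM, had 90.9, 78.8 and 89.1 CPM in CD301b, 69.1, 82.8 and 80.5 CPM in SIRPa and 92.9, 92.3 and 74.0 CPM in XCR1 libraries, and Mgat1 averaged 77.6 ± 8.39 CPM in CD301b, 64.6 ± 5.70 CPM in SIRPa and 67.0 ± 7.28 CPM in XCR1. Mgat4a and Mgat5, which add further branches, were the genes called. Mgat4a had 93.5, 75.4 and 62.0 CPM in CD301b, 121, 119 and 98.2 CPM in SIRPa and 22.1, 24.2 and 22.6 CPM in XCR1 libraries. The 3 populations did not overlap and ran SIRPa, CD301b, XCR1 from high to low.

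Mgat4a was higher than in XCR1 by 1.74 ± 0.16 in CD301b (edgeR adjusted p = 2.88e-08) and by 2.30 ± 0.16 in SIRPa (adjusted p = 4.80e-10) on the log2 scale. It was lower in CD301b than in SIRPa (log2 fold change -0.55 ± 0.15, adjusted p = 0.0401). The Mgat4a call between CD301b and SIRPa was lost at an adjusted p of 0.126 to 0.192 without CD301b 3, CD301b 4, SIRPa 1 or SIRPa 2. Mgat5, whose branch carries galectin ligands, had 65.9, 48.7 and 66.8 CPM in CD301b, 92.7, 81.8 and 87.4 CPM in SIRPa and 27.9, 24.5 and 39.5 CPM in XCR1 libraries. It too ran SIRPa, CD301b, XCR1 without overlap, with 0.98 ± 0.18 in CD301b (adjusted p = 2.50e-04) and 1.51 ± 0.18 in SIRPa (adjusted p = 1.27e-06) relative to XCR1, and -0.53 ± 0.17 for CD301b minus SIRPa (adjusted p = 0.100), which did not pass. Mgat4b averaged 19.9 ± 5.01 CPM in CD301b, 22.7 ± 3.00 CPM in SIRPa and 25.2 ± 9.91 CPM in XCR1 and did not pass.

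**Figure D5:**
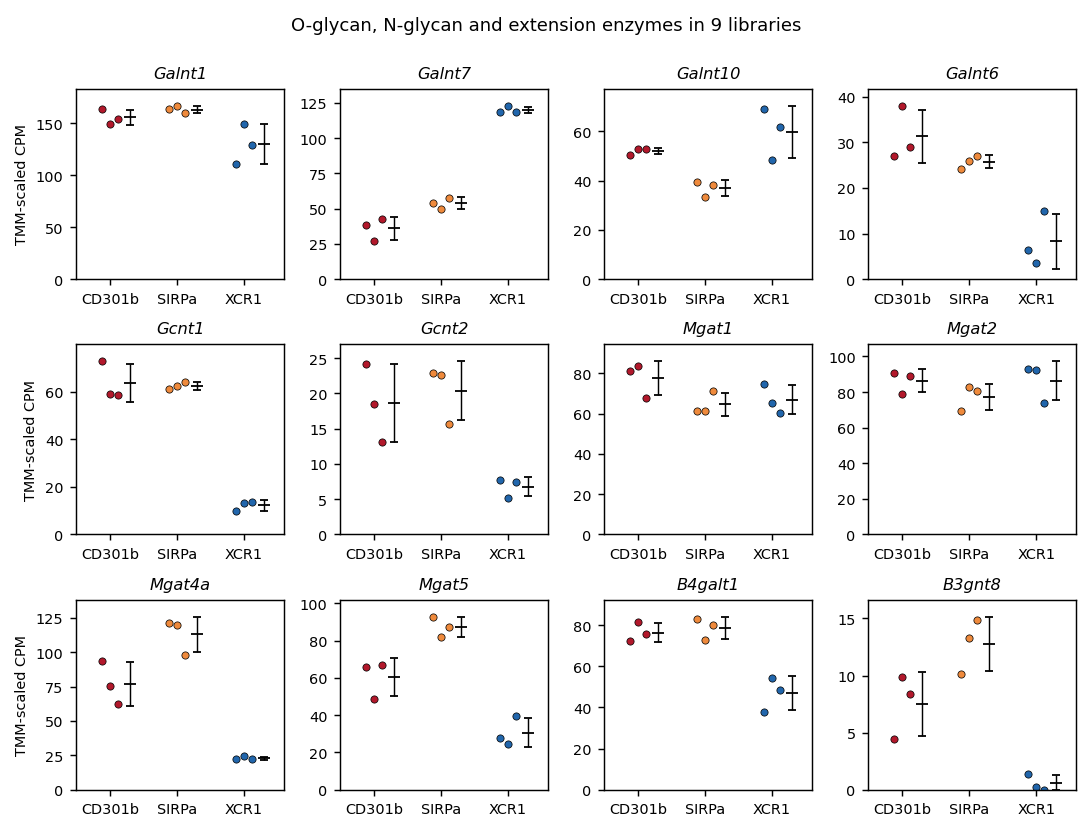
TMM-scaled CPM of O-glycan starting, branching and arm-lengthening enzymes, 1 point per library, with CD301b, SIRPa and XCR1 from left to right and bars for the mean ± SD of 3 libraries. Mgat1 and Mgat2 overlap in all populations, while Gcnt1, Mgat4a and Mgat5 are lowest in XCR1 and Galnt7 is highest there.

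Arms grow by alternating galactose and GlcNAc. Of 12 galactosyltransferase symbols 8 were tested: 1 was higher in CD301b than in SIRPa, and 3 in CD301b and 2 in SIRPa were higher than in XCR1. That was 12.5% called for CD301b minus SIRPa (4.28% of all genes), 37.5% for CD301b minus XCR1 (22.6%) and 25% for SIRPa minus XCR1 (24.7%), the last near the share of all genes. B4galt1, the main galactosyltransferase of N-glycans, had 72.4, 81.4 and 75.6 CPM in CD301b, 83.1, 72.8 and 80.3 CPM in SIRPa and 38.0, 54.4 and 48.4 CPM in XCR1 libraries. XCR1 was lowest without overlap, with log2 fold changes of 0.70 ± 0.15 for CD301b minus XCR1 (edgeR adjusted p = 0.00102) and 0.75 ± 0.15 for SIRPa minus XCR1 (adjusted p = 5.37e-04). B4galt7, which adds the first galactose of the proteoglycan linker, averaged 9.98 ± 2.54 CPM in CD301b, 5.76 ± 0.357 CPM in SIRPa and 4.33 ± 1.21 CPM in XCR1 and was higher in CD301b than in XCR1 by 1.20 ± 0.40 (adjusted p = 0.0328). The B4galt7 call was lost at an adjusted p of 0.0502 to 0.134 without CD301b 3, CD301b 4, SIRPa 1, SIRPa 2, SIRPa 3, XCR1 1 or XCR1 3, and at 0.0645 without the filter and 0.0546 in a fit of the 6 libraries compared. B3galt6, the next enzyme of that linker, averaged 5.19 ± 1.48 CPM in CD301b, 5.56 ± 3.55 CPM in SIRPa and 2.25 ± 0.514 CPM in XCR1 and did not pass, and neither did B4galt3 and B4galt4.

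Of 8 B3gnt symbols, which add GlcNAc to galactose, 6 were tested. Besides B3gnt5, lower against XCR1 in both populations, 2 were higher in both than in XCR1. Calls made up 16.7% for CD301b minus SIRPa (4.28% of all genes), 50% for CD301b minus XCR1 (22.6%) and 50% for SIRPa minus XCR1 (24.7%). B3gnt8, which lengthens arms of branched N-glycans, had 4.42, 9.84 and 8.36 CPM in CD301b, 10.2, 13.3 and 14.8 CPM in SIRPa and 1.40, 0.285 and 0 CPM in XCR1 libraries. B3gnt7, which takes part in keratan sulfate chains, had 3.50, 8.21 and 8.99 CPM in CD301b, 7.89, 5.35 and 4.24 CPM in SIRPa and 0.997, 0 and 0.193 CPM in XCR1 libraries. In both genes the XCR1 libraries were near 0 and did not overlap the others. The log2 fold changes relative to XCR1 were 3.75 ± 0.83 in CD301b (edgeR adjusted p = 0.00537) and 4.51 ± 0.85 in SIRPa (adjusted p = 0.00160) for B3gnt8, and 4.11 ± 0.87 in CD301b (adjusted p = 0.00160) and 3.87 ± 0.86 in SIRPa (adjusted p = 0.00231) for B3gnt7. Without XCR1 1 these log2 fold changes were 5.66 in CD301b and 6.42 in SIRPa for B3gnt8, and 6.09 in CD301b and 5.84 in SIRPa for B3gnt7. B3gnt2, B3gnt3 and B3gnt9 did not pass.

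B4galnt2, which makes the Sda blood group end, had 0.836, 2.22 and 0 CPM in CD301b, 0.756, 1.49 and 1.08 CPM in SIRPa and 0, 0 and 0 CPM in XCR1 libraries. CD301b replicate 4 was at 0 like XCR1, so those groups overlapped. Against the floor of 3 counts it was at least 21.0-fold higher in CD301b (edgeR adjusted p = 0.0273) and at least 22.9-fold higher in SIRPa (adjusted p = 0.0231) than in XCR1. The calls were lost at an adjusted p of 0.0602 to 0.105 without CD301b 3, XCR1 1, XCR1 2 or XCR1 3, and at 0.172 with limma-voom, for CD301b, and 0.0517 to 0.0600 without SIRPa 2, XCR1 1, XCR1 2 or XCR1 3, for SIRPa. Without CD301b 3 the bound in CD301b was 8.62-fold.

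Of 14 sulfotransferase symbols 9 were tested, and 2 were lower in CD301b than in SIRPa. Against XCR1, 3 were higher and 2 lower in CD301b, and 4 were higher and 0 lower in SIRPa. As shares, 22.2% were called for CD301b minus SIRPa (4.28% of all genes), 55.6% for CD301b minus XCR1 (22.6%) and 44.4% for SIRPa minus XCR1 (24.7%). Chst2, which sulfates GlcNAc in ligands of L-selectin and had the highest mean CPM of the group, had 62.5, 28.1 and 38.9 CPM in CD301b, 73.0, 70.6 and 61.7 CPM in SIRPa and 3.29, 1.28 and 5.44 CPM in XCR1 libraries. XCR1 libraries were low, and CD301b replicate 1 overlapped SIRPa. The log2 fold change was 3.69 ± 0.48 for CD301b minus XCR1 (edgeR adjusted p = 4.85e-04) and 4.36 ± 0.49 for SIRPa minus XCR1 (adjusted p = 1.78e-04). Chst7, which sulfates GlcNAc and chondroitin, had 8.20, 10.1 and 9.24 CPM in CD301b, 10.3, 3.77 and 11.4 CPM in SIRPa and 0.449, 0.855 and 0.578 CPM in XCR1 libraries, with 3.86 ± 0.52 in CD301b (adjusted p = 8.54e-06) and 3.74 ± 0.52 in SIRPa (adjusted p = 1.13e-05) relative to XCR1.

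Chst15, which adds the extra sulfate of chondroitin sulfate E, had 12.0, 23.2 and 9.14 CPM in CD301b, 35.0, 34.1 and 33.8 CPM in SIRPa and 39.7, 37.2 and 35.1 CPM in XCR1 libraries. CD301b was lowest without overlap, replicate 3 being closest to the others. It was lower than SIRPa (log2 fold change -1.21 ± 0.25, edgeR adjusted p = 0.00641) and lower than XCR1 (log2 fold change -1.34 ± 0.26, adjusted p = 4.78e-04), while SIRPa minus XCR1 was -0.12 ± 0.25 (adjusted p = 0.809). Chst3, a chondroitin sulfotransferase, had 2.63, 2.22 and 3.62 CPM in CD301b, 12.1, 10.9 and 9.84 CPM in SIRPa and 8.23, 4.65 and 3.18 CPM in XCR1 libraries. SIRPa was highest without overlap, and CD301b was lower than SIRPa (log2 fold change -1.96 ± 0.44, adjusted p = 0.0107). The Chst3 call was lost at an adjusted p of 0.0596 to 0.0754 without CD301b 3 or SIRPa 1.

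Chst11, another chondroitin sulfotransferase, had 13.4, 11.4 and 8.85 CPM in CD301b, 11.7, 17.8 and 11.1 CPM in SIRPa and 24.3, 19.1 and 16.8 CPM in XCR1 libraries. It was lower in CD301b than in XCR1 (log2 fold change -0.84 ± 0.28, edgeR adjusted p = 0.0325), without overlap, and the call was lost at an adjusted p of 0.0582 to 0.155 without CD301b 3, CD301b 4, XCR1 1 or XCR1 2. Chst14, which sulfates dermatan, averaged 5.67 ± 2.65 CPM in CD301b, 6.80 ± 0.372 CPM in SIRPa and 2.37 ± 1.20 CPM in XCR1 and was higher in SIRPa than in XCR1 by 1.52 ± 0.52 (adjusted p = 0.0369). The Chst14 call was lost at an adjusted p of 0.0831 to 0.115 without SIRPa 1, SIRPa 2, SIRPa 3, XCR1 1 or XCR1 2, and at 0.0544 without the filter. Chst10, which makes the HNK-1 end, averaged 9.77 ± 2.08 CPM in CD301b, 9.01 ± 0.744 CPM in SIRPa and 4.06 ± 0.982 CPM in XCR1. It was higher than in XCR1 by 1.27 ± 0.37 in CD301b (adjusted p = 0.0151), lost at an adjusted p of 0.0674 to 0.0756 without CD301b 4 or XCR1 1, and by 1.15 ± 0.37 in SIRPa (adjusted p = 0.0248). The Chst10 call in SIRPa was lost at an adjusted p of 0.0508 to 0.100 without SIRPa 1, SIRPa 2, SIRPa 3 or XCR1 1. Chst12 averaged 18.9 ± 4.35 CPM in CD301b, 18.9 ± 2.52 CPM in SIRPa and 14.6 ± 1.39 CPM in XCR1 and did not pass, and neither did Chst1, at 0.279, 0 and 0 CPM in CD301b, 1.89, 0.483 and 1.22 CPM in SIRPa and 0, 0 and 0.289 CPM in XCR1 libraries.

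Set against each other per kilobase of exon, as means of the 3 populations, the 5 highest genes were B4galnt1 at 46.5 CPM, Mgat2 at 31.9 CPM, Galnt1 at 27.0 CPM, St6gal1 at 21.2 CPM and St3gal1 at 19.9 CPM. Exons of several genes overlap other genes, and no source used here states the strand setting of the counting, so their reads are uncertain. On the same strand, B3gnt2 shares 2449 of 4180 exon bases with Gm28048, Galnt2 shares 3854 of 4282 with Gm20388 and Galnt4 shares 420 of 5089 with Poc1b. B4galt2 shares 1417 of 5031 with Ccdc24, also on the same strand. On the opposite strand, B3gnt8 shares 1171 of 6474 bases with Bckdha, Chst15 shares 1206 of 6754 with Gm10584, B4galnt1 shares 715 of 3454 with Slc26a10, St3gal4 shares 412 of 2923 with 4930581F22Rik and Galnt6 shares 441 of 3871 with Galnt6os. Also on the opposite strand, B3gnt4 shares 1326 of 1423 with Diablo and St3gal6 shares 1603 of 6172 with Dcbld2.

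The other 36 genes were too low to test. Of these, 16 had 0 counts in all 9 libraries: B3gnt4, Chst4, Chst9, Fut2, Fut4-ps1, Fut9, Galnt13, Galnt14, Galnt15, Gcnt7, Mgat4c, Mgat4d, Mgat4e, St6gal2, St8sia3os and St8sia5. A count of 0 allows up to 3 counts, which is 0.119 to 0.150 CPM in a library, so these were not detected at this depth. For B3gnt4, which shares 1326 of 1423 exon bases with Diablo, low RNA and reads lost in the counting cannot be told apart. Another 4 had 1 to 3 counts in total, namely B3gnt6, B4galnt3, Galnt18 and St8sia3. The remaining 16, with at most 81 counts each, were B3galt1, B3galt2, B3galt5, B4galnt4, B4galt2, Chst13, Chst5, Chst8, Fut1, Galnt16, Galnt17, Galnt5, Galnt6os, Gcnt3, Mgat3 and Mgat5b. B3galt5, singled out after its values were seen, had 3 counts in CD301b, 69 in SIRPa and 0 in XCR1, and B3galt2 had 5, 56 and 0 counts in the same order, 51 of the 56 in SIRPa replicate 3. For B3galt5 the ratio of SIRPa to CD301b was 24.5 (exact 95% interval 8.04 to 122, for counting error only), and 13.1 (4.01 to 68.0) without SIRPa 1, which left 25 of the 69 counts.

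Genes around these enzymes were read from the same fit by 6 lists. Of 9 tested genes of sialic acid supply and removal, 0 passed between CD301b and SIRPa with edgeR (3 at an unadjusted p under 0.05, 1 with limma-voom and 0 with DESeq2), 3 were higher in CD301b than in XCR1, and 4 were higher and 1 lower in SIRPa than in XCR1. In either direction 0% passed for CD301b minus SIRPa (4.28% of all genes), 33.3% for CD301b minus XCR1 (22.6%) and 55.6% for SIRPa minus XCR1 (24.7%). Ctsa, which protects the lysosomal sialidase, averaged 279 ± 27.4 CPM in CD301b, 359 ± 24.2 CPM in SIRPa and 18.4 ± 3.60 CPM in XCR1, with log2 fold changes of 3.92 ± 0.14 for CD301b minus XCR1 (edgeR adjusted p = 1.74e-14) and 4.29 ± 0.14 for SIRPa minus XCR1 (adjusted p = 8.88e-15). Gne, which starts sialic acid synthesis, averaged 37.5 ± 7.41 CPM in CD301b, 27.3 ± 4.35 CPM in SIRPa and 15.8 ± 5.50 CPM in XCR1, with 1.25 ± 0.24 for CD301b minus XCR1 (adjusted p = 6.05e-04) and 0.79 ± 0.24 for SIRPa minus XCR1 (adjusted p = 0.0200, lost at 0.0667 to 0.112 without SIRPa 2, SIRPa 3, XCR1 1 or XCR1 2). Sialidase genes were called as well: Neu3 in CD301b at 2.16 (adjusted p = 0.0435, lost at 0.0694 to 0.125 without CD301b 1, CD301b 3, CD301b 4, SIRPa 1, SIRPa 2, SIRPa 3, XCR1 1 or XCR1 3) and Neu1 in SIRPa at 1.01 (adjusted p = 0.00456), both relative to XCR1. Neu3 was called in SIRPa too, at 2.14 relative to XCR1 (edgeR adjusted p = 0.0419). That call was lost at 0.0581 to 0.139 without CD301b 1, CD301b 3, SIRPa 1, SIRPa 2, SIRPa 3, XCR1 1 or XCR1 3. The 3 tested sialyltransferases that act on GalNAc passed in 0 of the 3 comparisons with edgeR, limma-voom or DESeq2, and 0 had an unadjusted edgeR p under 0.05.

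Of 21 other tested Golgi glycosyltransferases, 2 were lower in CD301b than in SIRPa, 4 were higher and 2 lower in CD301b than in XCR1, and 5 were higher and 0 lower in SIRPa than in XCR1. In either direction 9.52% passed for CD301b minus SIRPa (4.28% of all genes), 28.6% for CD301b minus XCR1 (22.6%) and 23.8% for SIRPa minus XCR1 (24.7%). Gbgt1, named for the Forssman glycolipid, averaged 14.1 ± 2.86 CPM in CD301b, 21.6 ± 3.02 CPM in SIRPa and 1.40 ± 0.977 CPM in XCR1, with 3.33 ± 0.40 for CD301b minus XCR1 (edgeR adjusted p = 1.61e-06) and 3.95 ± 0.41 for SIRPa minus XCR1 (adjusted p = 1.98e-07). Lfng, which modifies fucose on Notch, was higher than in XCR1 by 0.97 in SIRPa (edgeR adjusted p = 1.27e-04) and by 0.69 in CD301b (adjusted p = 0.00362). Ggta1, which makes the alpha-galactose end, was lower in CD301b than in SIRPa (log2 fold change -0.54, adjusted p = 0.0237, lost at 0.0515 to 0.142 without CD301b 1, CD301b 3, SIRPa 1 or SIRPa 2). Ggta1 was also lower in CD301b than in XCR1 (log2 fold change -0.50, edgeR adjusted p = 0.0102). That call was lost at 0.0532 without CD301b 3 and 0.0674 without XCR1 1. Pomgnt1, an enzyme of O-mannose glycans, was lower in CD301b than in SIRPa (log2 fold change -0.97, adjusted p = 0.0365, lost at 0.0957 to 0.242 without CD301b 3, CD301b 4, SIRPa 2 or SIRPa 3) and lower than in XCR1 (log2 fold change -1.11, adjusted p = 0.00336).

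Of 26 tested glycosaminoglycan genes, 1 was lower in CD301b than in SIRPa, 7 were higher and 3 lower in CD301b than in XCR1, and 9 were higher and 5 lower in SIRPa than in XCR1. In either direction 3.85% passed for CD301b minus SIRPa (4.28% of all genes), 38.5% for CD301b minus XCR1 (22.6%) and 53.8% for SIRPa minus XCR1 (24.7%). Has2, a hyaluronan synthase, averaged 1.25 ± 1.15 CPM in CD301b, 12.5 ± 3.72 CPM in SIRPa and 0.906 ± 0.275 CPM in XCR1, and CD301b minus SIRPa was -3.31 ± 0.66 (edgeR adjusted p = 0.00414, lost at 0.0527 without SIRPa 1). Dse, which turns chondroitin into dermatan, averaged 146 ± 24.2 CPM in CD301b, 130.1 ± 3.48 CPM in SIRPa and 52.6 ± 7.97 CPM in XCR1 and was higher than in XCR1 by 1.48 ± 0.14 in CD301b (adjusted p = 5.40e-08) and by 1.31 ± 0.14 in SIRPa (adjusted p = 3.04e-07). Glce, the matching enzyme of heparan sulfate, averaged 12.7 ± 1.64 CPM in CD301b, 16.0 ± 2.43 CPM in SIRPa and 43.2 ± 3.13 CPM in XCR1 and was lower than in XCR1 in CD301b (log2 fold change -1.76, adjusted p = 1.71e-06) and in SIRPa (log2 fold change -1.43, adjusted p = 2.21e-05). Chsy3, a chondroitin synthase, averaged 0.0489 ± 0.0847 CPM in CD301b, 0.210 ± 0.199 CPM in SIRPa and 10.9 ± 1.54 CPM in XCR1, and was called lower in both CD301b (adjusted p = 1.70e-05) and SIRPa (adjusted p = 1.20e-04).

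Of 24 tested donor supply genes, 0 passed between CD301b and SIRPa with edgeR, limma-voom or DESeq2 (5 at an unadjusted edgeR p under 0.05), 2 were higher and 1 lower in CD301b than in XCR1, and 4 were higher and 3 lower in SIRPa than in XCR1. In either direction 0% passed for CD301b minus SIRPa (4.28% of all genes), 12.5% for CD301b minus XCR1 (22.6%) and 29.2% for SIRPa minus XCR1 (24.7%). The first step of UDP-GlcNAc supply is shared by Gfpt1 and Gfpt2, which moved apart. Gfpt2 averaged 21.0 ± 9.20 CPM in CD301b, 29.1 ± 3.36 CPM in SIRPa and 3.37 ± 0.281 CPM in XCR1, with 2.64 ± 0.30 for CD301b minus XCR1 (edgeR adjusted p = 6.68e-07) and 3.11 ± 0.30 for SIRPa minus XCR1 (adjusted p = 8.34e-08). Gfpt1 averaged 256 ± 17.5 CPM in CD301b, 280.0 ± 19.3 CPM in SIRPa and 395 ± 38.0 CPM in XCR1, with -0.62 ± 0.10 for CD301b minus XCR1 (adjusted p = 1.03e-04) and -0.50 ± 0.10 for SIRPa minus XCR1 (adjusted p = 0.00103). Papss2, which makes the sulfate donor used by the Chst enzymes, averaged 58.4 ± 4.73 CPM in CD301b, 82.8 ± 23.2 CPM in SIRPa and 34.8 ± 8.25 CPM in XCR1, with 0.75 ± 0.19 for CD301b minus XCR1 (adjusted p = 0.00739) and 1.25 ± 0.19 for SIRPa minus XCR1 (adjusted p = 5.30e-05).

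Of 17 tested genes that attach or trim N-glycans, 3 were higher in CD301b than in SIRPa, 5 were higher and 2 lower in CD301b than in XCR1, and 4 were higher and 5 lower in SIRPa than in XCR1. In either direction 17.6% passed for CD301b minus SIRPa (4.28% of all genes), 41.2% for CD301b minus XCR1 (22.6%) and 52.9% for SIRPa minus XCR1 (24.7%). Uggt1, the folding sensor of glycoproteins, and Rpn1 and Ddost, subunits of the oligosaccharyltransferase, were the genes higher in CD301b than in SIRPa, by 0.65, 0.53 and 0.43 on the log2 scale (edgeR adjusted p = 0.00105 for Uggt1, 0.00909 for Rpn1 and 0.0346 for Ddost, lost at 0.0699 to 0.152 without CD301b 1, CD301b 3, SIRPa 1, SIRPa 2 or SIRPa 3). Man1a and Man1c1, mannosidases that open N-glycans for branching, were higher than in XCR1 in both other populations. Man1a averaged 207 ± 35.6 CPM in CD301b, 228 ± 18.4 CPM in SIRPa and 65.2 ± 7.68 CPM in XCR1, with 1.66 ± 0.13 for CD301b minus XCR1 (adjusted p = 3.74e-09) and 1.81 ± 0.13 for SIRPa minus XCR1 (adjusted p = 1.06e-09), and Man1c1 averaged 36.4 ± 7.35 CPM in CD301b, 37.2 ± 4.64 CPM in SIRPa and 7.33 ± 1.12 CPM in XCR1, with 2.31 ± 0.22 for CD301b minus XCR1 (adjusted p = 6.71e-08) and 2.34 ± 0.22 for SIRPa minus XCR1 (adjusted p = 5.62e-08). Man2a2, a later mannosidase, was higher in CD301b than in XCR1 by 1.54 (adjusted p = 5.95e-06), and Rpn1 was lower in SIRPa than in XCR1 (log2 fold change -0.82, adjusted p = 1.39e-05).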

How the data were processed

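The sources used here are the submitters' labels and deposited tables. Per the labels' protocols, thymi were digested with collagenase D, antibody-stained cells were sorted by FACS, and stranded libraries were made from total RNA with a Clontech Pico kit and sequenced on a NextSeq. Per the submitters' processing notes, FastQC, Trimmomatic, HISAT2, SAMtools, Subread's featureCounts and edgeR were used with the genome build mm10. No source used here states tool versions, the annotation or the strand setting. The authors deposited raw read counts per gene symbol as whole numbers for 55302 symbols, and these counts are the values analysed here. Their second deposited table, of normalized log2 values, was not used.

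Of these symbols, 24 read as dates, so their genes are unknown; they held 0.125 to 0.187% of a library's counts and were left out. The 9 libraries held 20246092 to 25438864 counts, at which 3 counts correspond to 0.119 to 0.150 CPM. No 2 libraries were identical. Genes were kept by filterByExpr (minimum count 10), scaled by TMM and tested two-sided with edgeR's robust quasi-likelihood F test in 1 fit over the 3 populations with no other term. Benjamini-Hochberg adjustment ran over all 15417 genes, with a threshold of 0.05. Standard errors are the log2 fold change divided by the root of F. Where a population had 0 counts, a fold is a bound against a floor of 3 counts over that population, and these bounds, like the exact intervals for few counts, cover counting error only, since no molecular identifiers are stated. Versions were DESeq2 1.42.0, limma 3.58.1, edgeR 4.0.16 and R 4.3.3. The procedure was also run on counts simulated from the means and spread of these data, with known changes scored for CD301b minus SIRPa. Changes were put only in genes of higher count, so that run does not cover low-count genes or the comparisons with XCR1.

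Positions and exon lengths come from GENCODE M21 (all 95 genes matched) and sequences from RefSeq on GRCm38.p6. Every called gene of the 95 is named. The 8 in each direction with the largest change, and the tested gene of highest mean CPM in each role group, are described by library. Up to 3 called genes by adjusted p are named per comparison from each of 6 other lists, and some of these are also given in another comparison. The genes and lists were chosen with earlier results of these data known. Same-numbered libraries of 2 populations had correlations of their deviations of 0.003 to 0.041, and differently numbered ones of -0.067 to 0.048. The numbers were therefore not taken to pair them, but these values cannot tell whether libraries came from the same mouse. Alternatives were DESeq2's size factors, library totals, no filter, DESeq2, limma-voom, the 6 libraries of a comparison alone, a replicate block and each library left out.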

Additional observations from a re-analysis of the deposited data

How the results depend on the processing

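Over 1356 recomputed values of single genes, 1218 kept their direction and their side of the threshold, 119 lost the call, 10 gained one and 9 changed sign, none of which was called. The sign changes were Fut8 for CD301b minus SIRPa, with fits leaving out 1 library from -0.12 to 0.021; Gcnt1 for CD301b minus SIRPa, at -0.037 with library totals and -0.092 to 0.072 when 1 library was left out; and Mgat2 for CD301b minus XCR1, at 0.019 with library totals, 0.0033 with limma-voom, 0.026 with the replicate block and -0.10 to 0.059 when 1 library was left out. The genes lower in CD301b than in SIRPa numbered 6, against 10 with limma-voom and 1 to 8 when 1 library was left out, and the split of 3 higher and 6 lower was 2 and 7 with library totals. Over all genes that comparison had 660 calls, against 997 with limma-voom and 328 to 813 with 1 library left out, and its 339 higher and 321 lower were 266 and 391 with library totals. The other counts of the 95 genes stayed within 1.5 times: 2 to 3 higher for CD301b minus SIRPa, 20 to 24 higher and 6 to 9 lower for CD301b minus XCR1, 17 to 26 higher and 4 to 6 lower for SIRPa minus XCR1, and 27 to 36 for any difference. Replicate numbers were not taken to pair the libraries, and whether same-numbered libraries share a mouse is not known. With the replicate block, 2 genes were higher and 5 lower for CD301b minus SIRPa, 20 higher and 6 lower for CD301b minus XCR1, and 24 higher and 5 lower for SIRPa minus XCR1. Over all genes the block gave 370 higher and 290 lower for CD301b minus SIRPa. It gave 1745 and 1168 for CD301b minus XCR1, and 2216 and 1818 for SIRPa minus XCR1. The block ended the calls of Fut4, Mgat4a and St3gal4 for CD301b minus SIRPa (adjusted p = 0.142 to 0.211), of B3gnt8 (0.128), B4galt7, Chst10, Chst11, Fut4 and Galnt9 for CD301b minus XCR1 (0.0506 to 0.217) and of St8sia2 for SIRPa minus XCR1 (0.0630). Depth limits the 36 untested genes and those with a population at 0, and for B3gnt4 the overlap with Diablo may too. The causes were not tested.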
